A study of Mus musculus with 8 samples.

Results

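Scavenger receptors for modified lipoproteins were described in mouse liver through 10 genes, Cd36, Msr1, Marco, Olr1, Scarb1, Scarb2, Stab1, Stab2, Cd68 and Mrc1. A gene was included when a non-control probe of the array carried its name, whatever its values were. The 10 genes had 15 probes, 6 of them had 1 probe each, and 14 probes of 9 genes were detected, among 21303 genes with a detected probe on the array. Olr1 was the member without a detected probe.

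The samples were livers of wild-type male C57BL/6 mice, with 1 mouse per array. The STD group (n = 4) ate standard chow and the ATH group (n = 4) ate the atherogenic diet, which the labels call high in fat and cholesterol, in both cases for 4 weeks from an age of 14 to 17 weeks. No allele was altered in either group, and the RNA came from homogenized liver, so each value is a mixture of hepatocytes and all other liver cells. The comparison asked whether transcripts of these receptors differed between the diets. On each array 72.3% to 77.8% of the spots were well above background. All STD arrays lay on slide 1 and all ATH arrays on slide 2, so that slide and diet cannot be told apart.

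Scavenger receptors bind lipoproteins that have been oxidized or acetylated, along with other polyanionic ligands, and carry them into the cell. They are not shut down by the cholesterol they bring in, so that macrophages can fill with lipid and become foam cells. In liver they are divided between cell types. Kupffer cells, the resident macrophages of the liver, and recruited macrophages carry class A receptors, sinusoidal endothelial cells carry the stabilins and the mannose receptor, and hepatocytes carry Scarb1, which takes up cholesteryl ester from HDL.

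Each value below is a scaled log2 signal, the log2 of the processed spot intensity minus the 75th percentile of that array, so that 1 unit is a doubling and 0 is the signal of a bright probe. Levels of different probes are not comparable, since probes bind with different strength. A gene was read through its brightest probe and called when its limma p-value, adjusted over all 31056 detected probes by the Benjamini-Hochberg method, was below 0.05.

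The stretch of transcript that was read by the probes of Marco, Msr1, Scarb1 and Cd68, the genes with a called probe, is shown by the first 30 of the 60 probe bases, written 5′ to 3′ in the direction of the array file. Positions are on mouse assembly mm7, as named in the array files. Gene structure on that assembly was not used here, so exon, intron and UTR are not assigned. Msr1 is shown with each of its 3 probes because they differed in their calls. No letters are capitalised, as no part of a probe is singled out.
Marco A_51_P371750, chr1:120342087-120342147, minus strand: gagcccgagaggtcatcagtgtgtccccag
Msr1 A_51_P404846, chr8:38396605-38398766, minus strand: gtgtaggcggatcaagatcagtataactcc
Msr1 A_52_P607128, chr8:38394471-38394530, minus strand: aagtcatcttacatccaaaactacacgtat
Msr1 A_52_P127130, chr8:38414609-38414668, minus strand: gacactgcttgatgttcaactccatacaga
Scarb1 A_51_P255817, chr5:124511540-124511599, minus strand: tgctatgtcactgaattaaccactgtacgt
Cd68 A_51_P120470, chr11:69746386-69746445, minus strand: ttgggccaaagcttctgctgtggaaatgca
The span of the brightest Msr1 probe is longer than the probe, so that its bases lie on both sides of a gap in the genome.

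Of the 9 detected members, 3 rose on the atherogenic diet (Marco, Cd68 and Scarb1) and 0 fell. With the replicate number as a block in the fit 1 member was called, Marco, and with single arrays left out the count was 0 in 5 of the 8 fits. Over all detected probes of the array, 7.99% were called in either direction and 3.06% were called as higher. The median log2 fold change of the 9 members was 0.53, against -0.15 over all genes. All 9 had a positive difference, and 5 of them reached an unadjusted p below 0.05, as did 8813 of the 31056 detected probes. At the false discovery rate of 1% that the study's methods used, 0 members were called by limma, where 0.528% of all probes were, and the methods' t-test called 0 at 5% (22 of all probes). The diets did not overlap, with ATH higher, in 4 members, and in 6.01% of probes on the array. The opposite order was seen in 0 members and in 13.8% of probes.

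**Figure D1:**
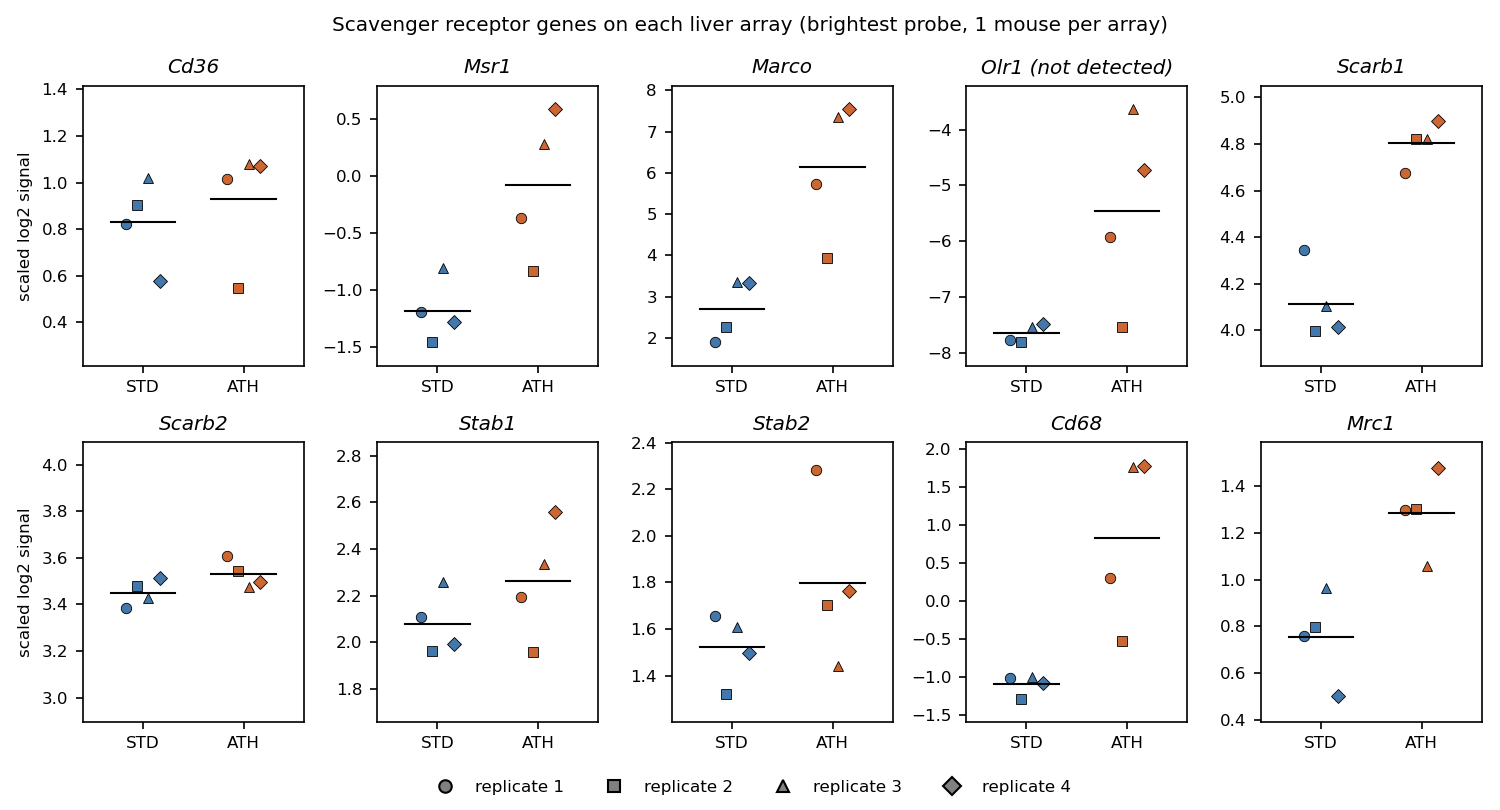
Scaled log2 signal (vertical axis, log2 units, a separate range in each panel) of the brightest probe of each scavenger receptor gene on the 4 STD and 4 ATH arrays. Each point is 1 mouse, its shape gives the replicate number and the line is the mean of the diet. Marco, Scarb1, Cd68 and Mrc1 have no overlap between diets. Replicate 2 is the lowest ATH array for Cd36, Msr1, Marco, Olr1, Stab1 and Cd68.

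Marco and Msr1 are the class A members, with collagen-like stems that hold trimers together. Marco, a receptor of macrophages for bacteria and modified lipoproteins, had the largest difference of the members. Its scaled log2 signal was 1.89, 2.27, 3.34 and 3.34 on STD replicates 1 to 4, and 5.72, 3.93, 7.37 and 7.54 on ATH replicates 1 to 4. Every ATH liver was above every STD liver, and the ATH livers were spread over 3.62 log2 units, with replicate 2 closest to the STD group. The log2 fold change was 3.43 ± 0.76 (SE, n = 4 per diet; 95% interval 1.70 to 5.16), a 10.8-fold rise with an adjusted p of 0.0352. In the fit with a replicate block, which called 4.45% of all probes, the adjusted p was 0.0366. It was 0.00449 without ATH replicate 2 and 0.0545 to 0.0933 without any other array, with a log2 fold change of 2.96 to 4.17 over these fits, and 0.0586 without a detection filter.

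Msr1, the macrophage scavenger receptor through which acetylated LDL enters foam cells, was read by 3 probes that had similar differences and different calls. The brightest, A_51_P404846, gave -1.19, -1.46, -0.81 and -1.28 on STD replicates 1 to 4 and -0.37, -0.83, 0.28 and 0.58 on ATH replicates 1 to 4. Its diets overlapped by 0.02, where ATH replicate 2 met STD replicate 3. The log2 fold change was 1.10 ± 0.30 (SE, n = 4 per diet), with an adjusted p of 0.0574, so that Msr1 was not called by the rule (adjusted p 0.0142 without ATH replicate 2). Probe A_52_P607128 gave -1.40, -1.30, -1.24 and -1.58 on STD and -0.44, -0.69, -0.27 and -0.13 on ATH. Its diets did not overlap and the signal rose by 1.0 ± 0.15 on the log2 scale, 2.0-fold, with an adjusted p of 0.0137, of 0.0439 with the replicate block and below 0.05 in all 8 fits without an array. The third probe, A_52_P127130, had -2.16, -2.57, -2.20 and -2.48 on STD and -1.65, -2.0, -0.74 and -0.50 on ATH, a log2 fold change of 1.13 ± 0.32 with an adjusted p of 0.0626.

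Cd36, Scarb1 and Scarb2 are the class B members, which pass the membrane at both ends of the protein. Scarb1, the HDL receptor, had a scaled log2 signal of 4.34, 4.00, 4.10 and 4.01 on STD and 4.68, 4.82, 4.82 and 4.90 on ATH. The diets were 0.33 apart at their nearest arrays, and the ATH livers lay closer together than for Marco or Cd68. The signal rose by 0.69 ± 0.13 on the log2 scale, 1.61-fold, with an adjusted p of 0.0208. With the replicate block the adjusted p was 0.0523, and the call was kept on leaving out replicate 1 of either diet or ATH replicate 2, and lost, at 0.0506 to 0.0631, on leaving out any other array.

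Cd36, which takes up oxidized LDL and long-chain fatty acids, had 0.82, 0.90, 1.02 and 0.58 on STD and 1.01, 0.55, 1.08 and 1.07 on ATH through its brightest probe, A_51_P375138. The diets overlapped, with ATH replicates 3 and 4 above every STD liver and ATH replicate 2 below every STD liver. The difference of 0.10 ± 0.16 (log2, 95% interval -0.28 to 0.47, adjusted p 0.729) leaves room for changes inside that interval. Its second probe, A_51_P375146, ranged from 0.19 to 0.58 on STD and from 0.50 to 0.83 on ATH, a difference of 0.25 ± 0.14 with an adjusted p of 0.272. Scarb2, a lysosomal membrane protein that carries glucocerebrosidase, had 3.38, 3.48, 3.43 and 3.51 on STD and 3.61, 3.54, 3.47 and 3.50 on ATH. The difference was 0.08 ± 0.11 (95% interval -0.16 to 0.32, adjusted p 0.651), and that of its second probe was 0.01 ± 0.11.

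A difference between 2 members on the same array does not change when a constant is subtracted from the whole array, though it does under quantile normalization. Members of a class were also set against each other within arrays, in all 5 pairs of classes A, B and H. The pairs were chosen after the values had been seen, so the values are a description with no test. The signal of Scarb1 minus that of Cd36 was 3.28 ± 0.23 on STD and 3.88 ± 0.27 on ATH (mean ± SD, n = 4). Scarb1 minus Scarb2 was 0.66 ± 0.21 on STD and 1.28 ± 0.15 on ATH, with no overlap in either pair. Marco minus Msr1 was 3.90 ± 0.66 on STD and 6.23 ± 1.07 on ATH, also without overlap. Cd36 minus Scarb2 (-2.62 ± 0.23 on STD, -2.60 ± 0.28 on ATH) and Stab2 minus Stab1 (-0.56 ± 0.10 and -0.46 ± 0.46) overlapped between diets. Each mean is a difference between probes of unequal strength, and it is its change between diets that can be read.

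**Figure D2:**
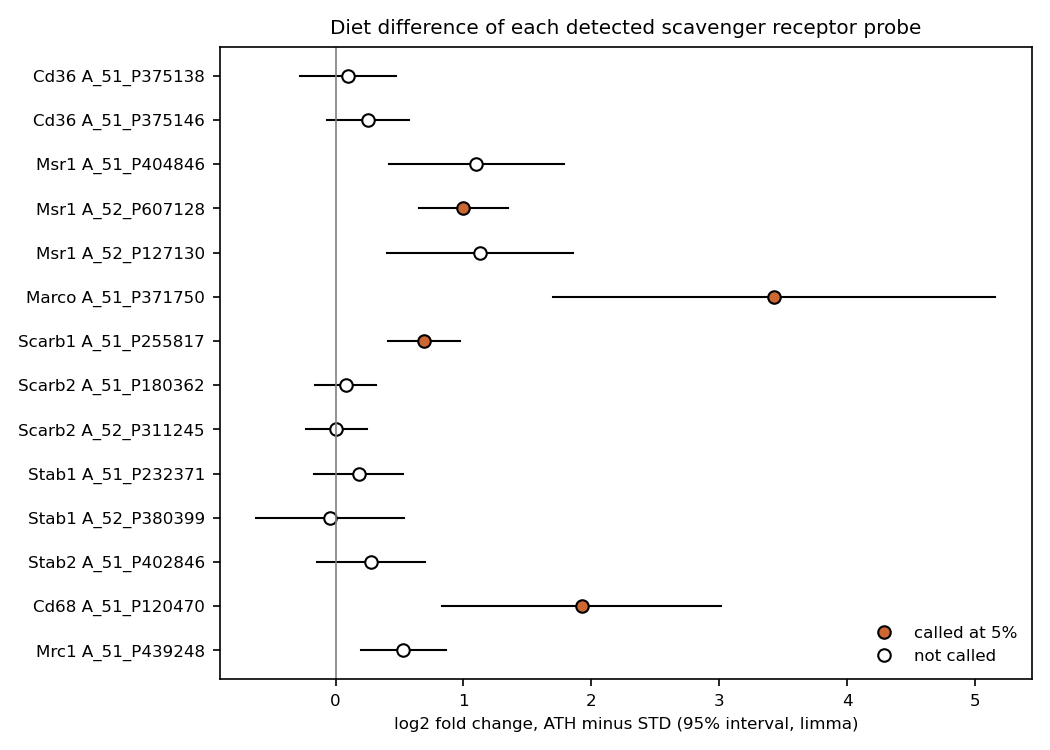
Log2 fold change (horizontal axis, ATH minus STD) of the 14 detected probes of the scavenger receptors, with the 95% interval of the limma fit as a line, n = 4 arrays per diet. Filled points mark the 4 probes called at 5%; the intervals of Cd36, Scarb2, Stab1 and Stab2 include 0, and that of Marco is the widest.

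Stab1 and Stab2 are the stabilins, class H receptors of sinusoidal endothelium that clear modified LDL and hyaluronan from blood. Stab1 had 2.11, 1.96, 2.26 and 1.99 on STD and 2.20, 1.96, 2.33 and 2.56 on ATH, a difference of 0.18 ± 0.15 (95% interval -0.17 to 0.53, adjusted p 0.460). Its second probe, A_52_P380399, differed by -0.04 ± 0.25, and the sign of that value turned to 0.40 without scaling between arrays. Stab2 had 1.66, 1.32, 1.61 and 1.50 on STD and 2.28, 1.70, 1.44 and 1.76 on ATH. Its difference was 0.27 ± 0.19 (95% interval -0.15 to 0.70, adjusted p 0.356), with ATH replicate 1 above the other arrays and ATH replicate 3 within the STD range. Neither stabilin was called.

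Cd68, a class D member and a lysosomal glycoprotein of macrophages, had -1.02, -1.29, -1.0 and -1.08 on STD and 0.30, -0.53, 1.76 and 1.78 on ATH. The STD livers lay within 0.29 log2 units of each other and the ATH livers within 2.31, with every ATH liver above every STD liver. The signal rose by 1.92 ± 0.48 on the log2 scale (95% interval 0.83 to 3.01), 3.79-fold, with an adjusted p of 0.0461. The adjusted p was 0.0551 with the replicate block and 0.055 after quantile normalization. It was 0.00666 without ATH replicate 2 and 0.0573 to 0.108 without any other array.

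Mrc1, the mannose receptor of endothelial cells and alternatively activated macrophages, had 0.76, 0.80, 0.96 and 0.50 on STD and 1.30, 1.30, 1.06 and 1.48 on ATH. The diets did not overlap, and the nearest arrays were 0.09 apart. The log2 fold change was 0.53 ± 0.15 (95% interval 0.20 to 0.86) with an adjusted p of 0.0583, and 0.103 with the replicate block. Mrc1 was therefore not called. It was called in 6 of 10 other settings of the processing and in 0 of the 8 fits with an array left out, where the adjusted p was 0.0724 to 0.145.

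Olr1, a class E lectin-like receptor for oxidized LDL, gave -7.77, -7.82, -7.54 and -7.49 on STD and -5.92, -7.54, -3.64 and -4.73 on ATH. Its probe was well above background on 0 of 4 STD arrays and 2 of 4 ATH arrays, so that the STD values and those of the other ATH arrays have only an upper bound, and no fold is given. In a fit of all probes without a detection filter the adjusted p was 0.119.

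Not all members ranked the livers of 1 diet in the same order. On ATH, replicate 4 was the highest array for 6 of the 10 genes and replicate 2 the lowest for 6. On STD, replicate 3 was the highest for 6 genes and replicate 2 the lowest for 6. In both diets the genes with replicate 2 lowest include Olr1, whose STD values and some ATH values have only an upper bound. The genes whose profile over the 8 arrays was nearest to that of Marco, among 21292 genes and by the root mean square difference of mean-centred values, were Bcl2a1c (0.40), Mefv (0.41) and Clec5a (0.41). Their log2 fold changes were 3.53, 3.09 and 3.79. Clec5a encodes a lectin receptor of myeloid cells and Mefv encodes pyrin.

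Cell type markers moved on the same arrays. Over all 21303 genes 8.78% were called, 753 as higher and 1118 as lower, which is the share to set beside each list below. Of 19 detected macrophage markers, 12 rose and 0 fell, with a median log2 fold change of 1.89. The median signal of the list ran from -0.19 to -0.01 on STD. It was 1.96, 1.27, 3.31 and 3.42 on ATH replicates 1 to 4, with replicate 2 lowest and replicates 3 and 4 highest. Marco, Msr1, Cd68 and the stabilin Stab1 had the same order of the ATH livers. The unscaled log2 75th percentile of these arrays also had it, at 9.27, 9.11, 9.42 and 9.46. The summed signal of the list was 50.2 to 61.6 times the 75th percentile on STD and 86.9 to 365 times on ATH. Itgax, an integrin of dendritic cells and activated macrophages, rose by 3.91 and Lgals3, a galectin of activated macrophages, by 2.77. The defining markers Adgre1 (1.54, adjusted p 0.0702) and Csf1r (1.12, adjusted p 0.142) were not called. In whole liver a larger number of macrophages and more RNA per macrophage cannot be told apart, and the part of either in the receptors' differences was not tested.

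Kupffer cell markers had 3 of 13 genes called as higher and 0 as lower, with a median of 0.65 and a summed signal of 101 to 110 on STD and 144 to 266 on ATH. Cd5l, a macrophage protein secreted into blood, rose by 1.69 and Il18bp by 1.81. Clec4f (0.32, adjusted p 0.290) and Vsig4 (0.65, adjusted p 0.0834), which define the type, were not called. Of the 13 genes 3 had a negative difference, the lowest being Cd163, the haemoglobin scavenger receptor, at -1.33 (adjusted p 0.109), a gene named here after its value was seen. Sinusoidal endothelial markers had 1 of 17 called, Fcgr2b, which rose by 0.68, and the list's summed signal was 56.2 to 74.1 on STD and 52.3 to 87.1 on ATH. Clec4g (0.21) and Pecam1 (0.26) were not called. Hepatocyte markers had 0 of 18 called as higher and 4 as lower, with a summed signal of 4898 to 5177 on STD and 3337 to 4464 on ATH. These sums are multiples of the array's 75th percentile, which was 0.45 higher on ATH (log2), so their order between diets depends on the scaling. Tat, tyrosine aminotransferase, fell by 1.05 and Ass1 of the urea cycle fell by 0.70, while Hnf4a differed by -0.13 and was not called. The list's median log2 fold change of -0.35 rested on the scaling. It was 0.09 without scaling, -0.04 with spike-in scaling and 0.03 after quantile normalization, and 1 gene was called under each of these and with median scaling. The defining genes Alb and Lyve1 were not analysed here, as no detected probe carried those names.

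**Figure D3:**
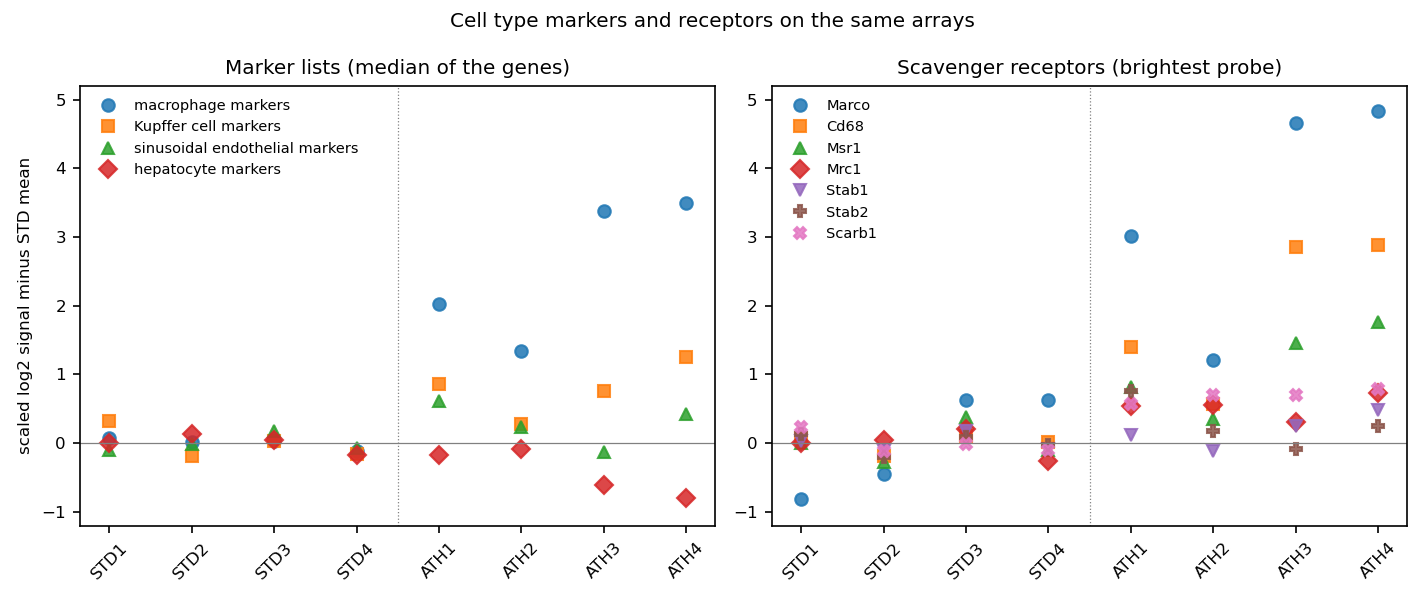
Scaled log2 signal minus the mean of the STD arrays (vertical axis, log2 units) on each of the 8 arrays, for the median of 4 marker lists (left) and for the brightest probe of 7 receptors (right). On ATH replicates 3 and 4 the macrophage list, Marco, Cd68, Msr1 and Stab1 are at their highest, and on ATH replicate 2 at their lowest of the ATH arrays.

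Markers of other liver cells were counted as well. Of 12 stellate cell markers 3 rose, among them Vim by 2.07 and the collagen gene Col3a1 by 1.74. Of 8 cholangiocyte markers 1 rose, Sox9, by 1.04. That list had 0 calls with any STD array, ATH replicate 3 or ATH replicate 4 left out, and 0 without a detection filter. By limma 0 of 12 T, B and NK cell markers and 0 of 9 neutrophil markers were called (4 and 4 at an unadjusted p below 0.05, which 8813 of 31056 probes reached), and 2 of the neutrophil markers were called with the replicate block.

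Partners of the receptors were counted in the same fit. Of 13 other detected scavenger receptors 2 rose, Clec7a, a receptor for fungal glucans, by 2.87 and Cd5l by 1.69, and 0 fell. Of 15 efferocytosis genes 2 rose, the phosphatidylserine receptor Havcr2 by 2.43 and Axl, a receptor tyrosine kinase for apoptotic cells, by 1.60. The 2 calls became 8 after normexp background correction, 10 without scaling and 7 with spike-in scaling. They became 1 without a detection filter and 1 to 7 with an array left out.

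Among 14 genes of HDL handling, which is the setting of Scarb1, 4 rose and 1 fell. The sterol exporters Abcg1 and Abcg8 rose by 2.28 and 2.20, and Pon1, an enzyme carried on HDL, fell by 0.88. Of 15 genes of fatty acid uptake, the setting of Cd36, 2 rose and 5 fell. Lpl, lipoprotein lipase, rose by 2.31 and Fabp2, a fatty acid binding protein, by 1.39, and the acyl-CoA synthetases Acsl1 and Acsl5 fell by 1.05 and 0.78. The 7 calls became 3 without scaling or with spike-in scaling, 4 with median scaling and 1 to 7 with an array left out, and the list's median moved from -0.37 to 0.08 without scaling. Of 13 genes of sterol handling after uptake 3 rose, among them Abcg1 by 2.28 and Soat1, which esterifies cholesterol, by 2.03. In that list 1 fell, Pparg, by 1.15. Abcg1 and another gene that rose are also counted in the list of HDL handling, so these lists are not independent. Of 12 Toll-like receptor partners 6 rose and 0 fell, with Tlr2 at 2.81 and Cd14, the lipopolysaccharide co-receptor, at 2.56. Cd14 is also counted among the macrophage markers. With the replicate block the calls became 2 of 12 for the Toll-like receptor partners, 4 of 19 for the macrophage markers, 1 of 12 for the stellate cell markers, 1 of 18 for the hepatocyte markers, 0 of 17 for the sinusoidal endothelial markers, 4 of 15 for fatty acid uptake, 4 of 14 for HDL handling and 3 of 13 for sterol handling. Named genes that were called without the block and not with it were Pon1 (adjusted p with the block 0.0546), Soat1 (0.0577), Acsl5 (0.0523), Cd14 (0.0524), Fcgr2b (0.0693), Ass1 (0.0682) and Vim (0.0504). With any STD array, ATH replicate 3 or ATH replicate 4 left out, the calls were 0 of 12 for the Toll-like receptor partners and 0 of 12 for the stellate cell markers, and without a detection filter they were 1 and 0.

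**Figure D4:**
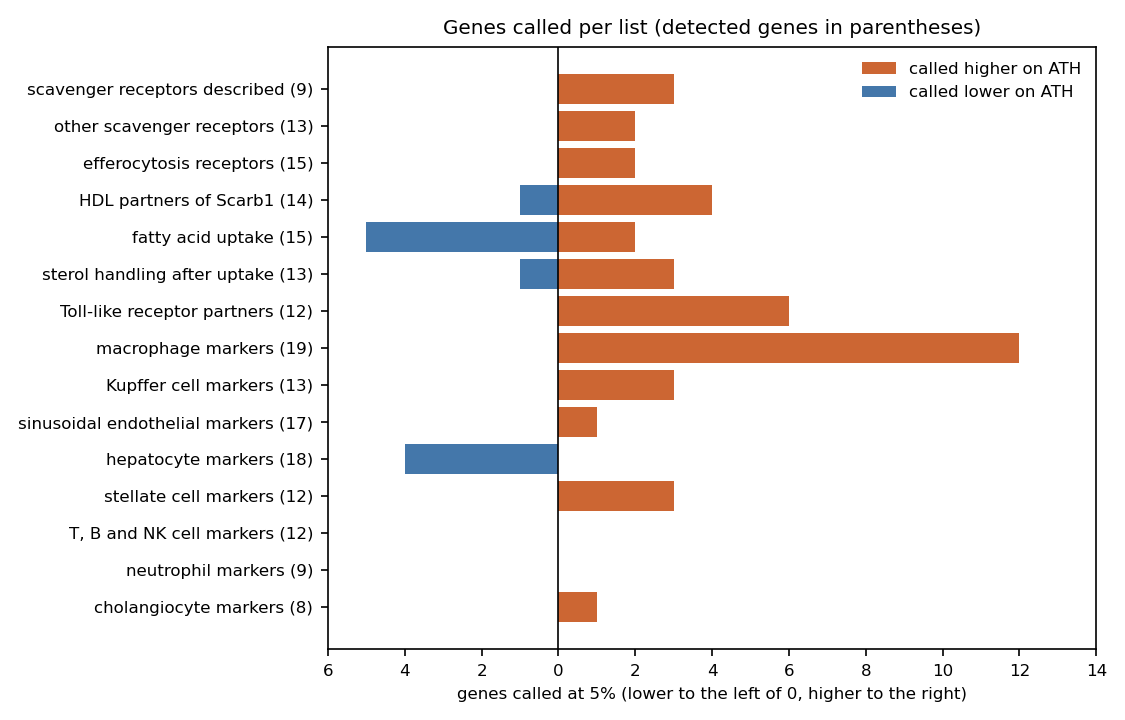
Number of genes called at 5% in each list described (horizontal axis, called lower on ATH to the left of 0 and called higher to the right), with the number of detected genes in parentheses. The scavenger receptors have 3 of 9 called as higher and 0 as lower, and macrophage markers have 12 of 19 called as higher.

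The promoters of 8 of the 10 members were matched by symbol in a RefSeq table on assembly GRCm38.p6, each 300 bases long, from 250 bases before the transcript start to 50 after it. Those of Msr1 and of the called member Scarb1 had no match and were not searched. They were searched on both strands for GAGGAA, the core bound by the myeloid factor PU.1, for TGANTCA, bound by AP-1, for CACGTG, the E-box, and for GGGCGG, the Sp1 box. The PU.1 core was in 5 of 8 promoters (Marco, Olr1, Stab1, Cd68 and Mrc1), against 28.3% of 32851 promoters of the same length. AP-1 was in 2 of 8 (Olr1 and Cd68), against 7.81%. The Sp1 box was in 4 of 8 (Cd36, Scarb2, Cd68 and Mrc1), against 35.7%, and the E-box in 0 of 8, against 7.15%. A match is a description of letters and not a binding site. The promoters of the called members Marco and Cd68 and of Cd36, whose difference was near 0, are shown with the matches in capitals, 5′ to 3′ on the strand of the gene, and all 3 genes lie on the minus strand.
Marco, chr1:120504975-120505274: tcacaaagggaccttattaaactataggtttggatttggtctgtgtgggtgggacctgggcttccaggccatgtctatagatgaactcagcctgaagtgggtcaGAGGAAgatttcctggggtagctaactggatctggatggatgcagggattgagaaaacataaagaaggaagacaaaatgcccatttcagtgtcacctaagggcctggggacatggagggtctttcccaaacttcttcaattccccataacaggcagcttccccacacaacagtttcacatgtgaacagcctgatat
Cd68, chr11:69666121-69666420: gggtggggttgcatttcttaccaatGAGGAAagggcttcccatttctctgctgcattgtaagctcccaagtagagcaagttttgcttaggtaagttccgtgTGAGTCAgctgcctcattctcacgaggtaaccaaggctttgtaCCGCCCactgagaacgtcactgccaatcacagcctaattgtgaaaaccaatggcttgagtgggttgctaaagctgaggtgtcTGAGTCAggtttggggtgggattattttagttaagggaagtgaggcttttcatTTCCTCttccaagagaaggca
Cd36, chr5:17835847-17836146: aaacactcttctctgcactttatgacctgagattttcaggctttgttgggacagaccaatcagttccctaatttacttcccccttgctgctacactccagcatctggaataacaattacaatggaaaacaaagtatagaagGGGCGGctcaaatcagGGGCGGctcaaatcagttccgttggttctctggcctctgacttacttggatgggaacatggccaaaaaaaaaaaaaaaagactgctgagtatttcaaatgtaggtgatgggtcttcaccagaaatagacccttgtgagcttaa
The capitals in Marco are 1 PU.1 core, those in Cd68 are 2 PU.1 cores, 2 AP-1 matches and 1 Sp1 box, and those in Cd36 are 2 Sp1 boxes. A match on the other strand is printed as its reverse complement.

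The number of members called moved with the scaling of the arrays, as it did with the filter and the test. The 75th percentile was 0.45 higher on ATH than on STD (log2), the median of 10 spike-in probes 0.14 higher, and without scaling the median log2 fold change of all probes was 0.30 in place of -0.15. Over all probes 949 were called as higher and 1533 as lower, and these became 6991 and 374 without scaling, 2463 and 397 with spike-in scaling, 1040 and 878 after quantile normalization and 1027 and 842 with median scaling. Marco and Scarb1 were called under each of these scalings, and Cd68 under each except quantile normalization. Mrc1 was not called with the 75th percentile and was called under each of the others (limma adjusted p 0.0111 to 0.0498). Through its brightest probe Msr1 was called without scaling (limma adjusted p 0.0218) and with spike-in scaling (0.0442). Scarb2 and Stab2 were called as higher without scaling (0.53 and 0.72), where the median of all probes had also moved up.

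**Figure D5:**
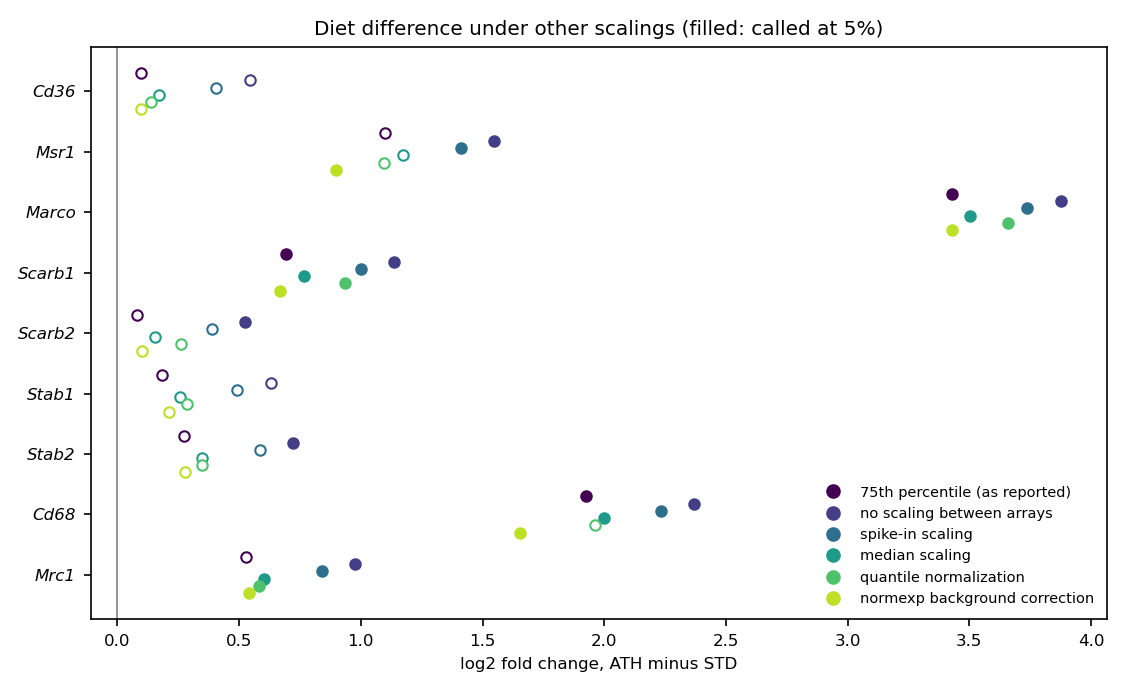
Log2 fold change (horizontal axis, ATH minus STD) of the 9 detected scavenger receptor genes under 6 ways of scaling or background correction, coloured by setting, filled where called at 5%. Marco and Scarb1 are filled throughout, and Cd36 and Stab1 are open throughout.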

How the data were processed

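Liver RNA of 8 mice was hybridised to 1-colour Agilent arrays. The authors ran Agilent Feature Extraction version 9.5 (submitters' processing notes), and the deposited spot intensity values were already background-subtracted. The authors also deposited log2 values made in GeneSpring, used as an alternative. Samples were grouped by the diet in the labels. The members and lists were chosen with earlier results of these data known. Spots of a probe were averaged without control and outlier-flagged spots, and log2 values were scaled by the array's 75th percentile. A probe was detected when well above background on at least 3 of 4 arrays of a diet. Diet was tested with limma 3.58.1 in R 4.3.3 (lmFit, eBayes, two-sided, Benjamini-Hochberg over 31056 probes), a test tried first on simulated data. The methods used an unequal-variance test at a false discovery rate of 1%. The number of arrays limits the precision.

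Genes were read through the probe with the highest mean over the 8 arrays. All members and probes are named, in each other list up to 2 called genes with the largest rise and 2 with the largest fall, the genes that define a cell type, and the 3 profiles nearest to the called member with the largest rise. The results of 1 other list are not reported here. Arrays of the same replicate number deviated together (correlations of 0.1002, 0.2297, 0.1815 and 0.1766 over 31042 probes), the number being the label's, so values with the replicate number as a block are given where they change a call. Alternatives were another background correction, scaling, filter, test, threshold, choice of probe, and each array left out. The 5 within-array pairs were added after the values were seen, and an exact permutation test tried on them was dropped for that reason. Summaries used Python 3.11.15 with numpy 2.4.6 and pandas 2.3.3, and plots matplotlib 3.10.9.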

Additional observations from a re-analysis of the deposited data

Results flagged for a closer look

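On the ATH diet replicate 2 of Cd36, read by probe A_51_P375138, stood apart from the other 3 livers. Its scaled log2 signal was 0.55 against 1.01 to 1.08, and the gap to its nearest neighbour was 0.874 of the range of the group. This was 1 of 28 groups of 4 arrays examined, and chance alone gives about 1 in 20. Without an array in turn, the log2 fold change of this probe ran from 0.01 to 0.22 and was called in 0 of 8 fits. The second Cd36 probe, A_51_P375146, did not set replicate 2 apart. It read 0.53, 0.50, 0.80 and 0.83 on ATH replicates 1 to 4.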

How the results depend on the processing

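Of the 9 detected members, 3 were called as higher. The count was 5 after normexp background correction, 7 without scaling, 5 with spike-in scaling and 5 among probes detected on all 8 arrays. It was 1 without a detection filter and 1 with the replicate block. The count was 0 at a false discovery rate of 1% and 0 by the unequal-variance t-test run here. With each array left out it ran from 0 to 4. It was 4 without ATH replicate 2, 1 without STD replicate 1 or ATH replicate 1, and 0 without STD replicate 2, 3 or 4 or ATH replicate 3 or 4. It was 3 after quantile normalization and with the deposited log2 values, 4 with median scaling, 4 when any probe of a gene could be called and 2 when probes were named by accession, which leaves out that of Cd68. The count of members called as lower was 0 in each of these settings.

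Signs turned for probes with a difference near 0. Scarb2 probe A_52_P311245 was at 0.01 and became -0.00036 with normexp, and -0.021 to 0.029 with an array left out. Stab1 probe A_52_P380399 was at -0.04 and became 0.40 without scaling, 0.031 with median scaling, 0.27 with spike-in scaling and -0.20 to 0.14 with an array left out. The cause was not tested. Over all probes 2482 were called, 6394 with normexp, 7365 without scaling and 1085 without a detection filter. The number was 22 by the unequal-variance t-test run here and 1383 with the replicate block. With an array left out the number ran from 394 (STD replicate 3) to 3986 (ATH replicate 2), and that of macrophage markers from 1 to 17 of 19, against 12. The unequal-variance t-test run here called 0 genes in each list described.

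The within-array difference between diets of Marco minus Msr1 was 2.33 and lay between 2.04 and 2.82 over 11 alternatives, that of Scarb1 minus Cd36 was 0.59 and lay between 0.46 and 0.80, and that of Scarb1 minus Scarb2 was 0.61 and lay between 0.56 and 0.71. With 4 livers per diet on separate slides, the fits show the spread between these livers and cannot show the slide. Olr1 is limited by signal near background.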
